A study of Mus musculus with 12 samples.

Results

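The 37 genes described here encode the enzymes, regulators and transporters of cholesterol and fatty acid synthesis. They were chosen by gene name from a table of 29428 mouse genes measured by RNA-seq in STHdhQ7 and STHdhQ111 cells. All 37 were found, and all were among the 16127 genes that passed a filter of at least 0.5 TPM, a level scaled for transcript length and library total, in at least 3 libraries. They comprise 7 enzymes of the mevalonate arm, 11 enzymes of the squalene and sterol arm, 5 regulators of the SREBP system, 6 genes of cholesterol transport, efflux and storage, and 8 genes of fatty acid synthesis and desaturation.

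STHdhQ7/Q7 and STHdhQ111/Q111 are immortalized mouse striatal lines whose huntingtin alleles both encode 7 or 111 glutamines. Each was sequenced without treatment (Q7-C and Q111-C) and 24 h after addition of LPS at 5 μg/mL together with IFNγ at 100 ng/mL (Q7-T and Q111-T), with 3 libraries per group. Each genotype is 1 line, so huntingtin genotype and other differences between the lines cannot be told apart. The study speaks of biological replicates without saying whether they came from separate cultures, so p-values measure the spread between these libraries. In bulk RNA, fewer cells of a type and less RNA per cell cannot be told apart.

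Cells make cholesterol from acetyl-CoA through mevalonate, isoprenoid diphosphates, squalene and lanosterol. When membrane sterol is low, SCAP carries the SREBP transcription factors to the Golgi for cleavage, and the released fragments switch on the enzymes of the pathway. INSIG proteins hold SCAP in the endoplasmic reticulum when sterol is plentiful. SREBP1 acts mainly on fatty acid genes and SREBP2 mainly on sterol genes, while oxysterols activate LXR, which induces the efflux pumps ABCA1 and ABCG1 and the Srebf1 gene. In the brain, cholesterol is made locally, and sterol synthesis has been studied widely in Huntington's disease models.

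Promoters of many sterol and fatty acid synthesis genes are known to bind SREBP together with the CCAAT-binding factor NF-Y, so stretches before the start sites of 6 members that fell after IFNγ/LPS are shown. Hmgcs1, Lss and Insig1 fell in both lines, and Mvd, Fasn and Elovl6 fell more than 2-fold in STHdhQ111 cells. The sequences are from RefSeq (GRCm38.p6), run 5′ to 3′ on the strand of the gene and stop before the annotated gene. Capitals mark CCAAT or its complement ATTGG and, in Hmgcs1 alone, the letters TCACNCCAC of a sterol regulatory element core. In Fasn a pair of matches on opposite strands overlap, and the Elovl6 stretch holds no match.
Hmgcs1, chr13:119690161-119690350, plus strand: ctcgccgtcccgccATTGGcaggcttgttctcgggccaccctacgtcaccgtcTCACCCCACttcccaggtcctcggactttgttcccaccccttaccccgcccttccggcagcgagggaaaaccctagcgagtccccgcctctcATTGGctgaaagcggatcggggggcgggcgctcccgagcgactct
Mvd, chr8:122443423-122443502, minus strand: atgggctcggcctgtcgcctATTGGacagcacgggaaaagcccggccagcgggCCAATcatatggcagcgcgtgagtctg
Lss, chr10:76531525-76531587, plus strand: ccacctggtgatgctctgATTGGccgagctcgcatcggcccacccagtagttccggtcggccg
Insig1, chr5:28071182-28071281, plus strand: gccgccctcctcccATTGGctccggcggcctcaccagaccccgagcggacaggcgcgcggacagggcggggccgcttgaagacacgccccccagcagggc
Fasn, chr11:120824548-120824647, minus strand: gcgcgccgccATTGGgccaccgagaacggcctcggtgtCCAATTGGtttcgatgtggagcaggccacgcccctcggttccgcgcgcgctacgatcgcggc
Elovl6, chr3:129532286-129532354, plus strand: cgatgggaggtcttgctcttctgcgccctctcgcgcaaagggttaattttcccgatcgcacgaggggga
Promoter windows of 300 bases, from 250 before the start to 50 after it, were found for 28 of the 37 members. Fdps, Fdft1, Sqle, Stard4, Abcg1, Npc1, Scd1, Scd2 and Fads1 had no entry. On either strand, CCAAT lay in a window of 22 of the 28 members (78.6%), against 41.1% of the 27025 genes in the table. All 9 squalene and sterol genes with a window held it, as did 2 of 5 fatty acid genes. The sequence TCACNCCAC lay in 1 of the 28 (3.57%), at -137 to -129 of Hmgcs1, against 1.44% of genes. Such matches describe the letters and are not evidence of binding.

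Depth ran from 57505990 to 96417834 estimated counts over the 12 libraries. The labels call the lines neuronal. Of 5 markers of mature neurons, Snap25 and Syt1 were near 0 and Ppp1r1b spanned 0 to 1.30 TPM, while Tubb3 spanned 2.56 to 83.6 and Map2 0.604 to 10.6. Tubb3 was higher in every treated library than in the nontreated libraries of its line, whereas Map2 was lower in treated STHdhQ7 cells and Ppp1r1b lower in treated cells of both lines. Mesenchymal markers summed to between 1492 and 4792 TPM. Progenitor markers (Nes, Sox2, Pax6 and Fabp7) summed to between 36.54 and 127.6 TPM in STHdhQ7 and between 10.65 and 16.33 TPM in STHdhQ111 cells. Fabp7 went the other way, at 0.3611 to 0.7283 TPM in STHdhQ7 and 0.7925 to 3.2453 TPM in STHdhQ111 cells. The mesenchymal sum, mostly Vim in STHdhQ111 cells, was lowest in Q111-T (1492 to 1604 TPM), where 19 members fell. Col1a1, Col1a2 and Col3a1 were lowest in Q7-T, although they too were lower in Q111-T than in Q111-C. Acta2 was low in both STHdhQ111 groups (24.6 to 56.0 TPM). Astrocyte markers, mostly Slc1a3, summed to 8.69 to 10.81 TPM in Q111-C and 4.052 to 5.244 TPM in Q111-T. Slc1a3 carried this fall, while Aldh1l1 rose from at most 0.115 TPM to between 1.05 and 1.61 TPM. Slc1a2 and Gfap also rose, to 0.331 TPM or less, and Aqp4 was near 0. Of 5 microglia or macrophage markers, Ptprc, Csf1r, Adgre1 and Itgam were near 0 and Cd68 carried a sum of 14.45 to 16.81 TPM in Q111-C and 40.79 to 57.97 TPM in Q111-T. The part of these markers in the results was not tested. Of the 12 libraries, 2 stood apart, Q7-C replicate 1 and Q7-T replicate 2. In TPM they were the lowest of their group for 30 and 29 of the 37 members, but also for 67.0% and 69.8% of all genes tested. This trait was not particular to them, as Q111-T replicate 2 was the lowest of its group for 31 members (61.1% of all genes) and Q111-C replicate 1 for 27 (48.3%). The library nearest to Q7-T replicate 2 over all genes was Q7-C replicate 1, of the other group. Their deviations from the group means correlated at 0.644, while those of Q7-C replicate 3 and Q7-T replicate 1 correlated at 0.504. Whether both carry the right label could not be settled, which touches every comparison with STHdhQ7 cells. Counts of calls in these comparisons are therefore given with and without both, and single genes where the value moved by over 1.5 times or fell below 2-fold.

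IFNγ/LPS lowered lipid synthesis genes in both lines, 19 members in STHdhQ111 and 4 in STHdhQ7 cells. In STHdhQ111 cells (Q111-T vs. Q111-C), 19 of the 37 members were downregulated and 1 was upregulated by edgeR's quasi-likelihood test (Benjamini-Hochberg adjusted p under 0.05), against 7.33% and 11.3% of all genes tested. Their median log2 fold change was -0.75, and that of all genes was near 0. With an added threshold of 2-fold, 7 were lower and 1 higher (11.2% of all genes in either direction). The 3 treated libraries lay wholly below the 3 nontreated ones in TPM for 29 members and wholly above for 5, against 49.6% of all genes in either direction. Exact permutation tests of 3 against 3 libraries cannot give a p under 0.1.

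In Q7-T vs. Q7-C, 4 members were downregulated (Hmgcs1, Lss, Cyp51 and Insig1) and 0 were upregulated, against 1.74% and 3.61% of all genes. None of the 4 fell by 2-fold, while 4.04% of all genes passed both thresholds. At an unadjusted p under 0.05, 1 member (Npc2) was higher. The values of 33 of the 37 members lay below 0, with a median of -0.30, and the groups did not overlap in TPM for 10 lower members and 1 higher member (14.4% of all genes). All 4 genes that fell in STHdhQ7 cells also fell in STHdhQ111 cells, where they made up 4 of 19. Without Q7-C replicate 1 and Q7-T replicate 2, 15 members were lower and 1 (Npc2) higher in Q7-T vs. Q7-C, with a median of -0.52, while the shares of all genes were 3.89% and 4.66%. With either library left out alone, 7 were lower. Without Q7-C replicate 2, Q7-C replicate 3 or Q7-T replicate 3, 2 were lower.

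The responses of the lines differed by an interaction test for 2 members, Elovl6 and Fdft1, both lower in STHdhQ111 cells. This compares with 1.75% of all genes on the lower side, 3.94% on the higher side and 4.71% past 2-fold in either direction. No member had a higher response in STHdhQ111 cells in this edgeR test, where 1 member (Hsd17b7) had one at an unadjusted p under 0.05. Without both Q7 libraries that stood apart, 8 members (Elovl6, Fads1, Fasn, Fdft1, Fdps, Mvd, Sqle and Srebf1) had a lower and 3 (Abcg1, Hsd17b7 and Npc2) a higher response in STHdhQ111 cells, against 6.39% and 10.7% of all genes. For the other members a difference between the lines' responses was not shown.

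**Figure D1:**
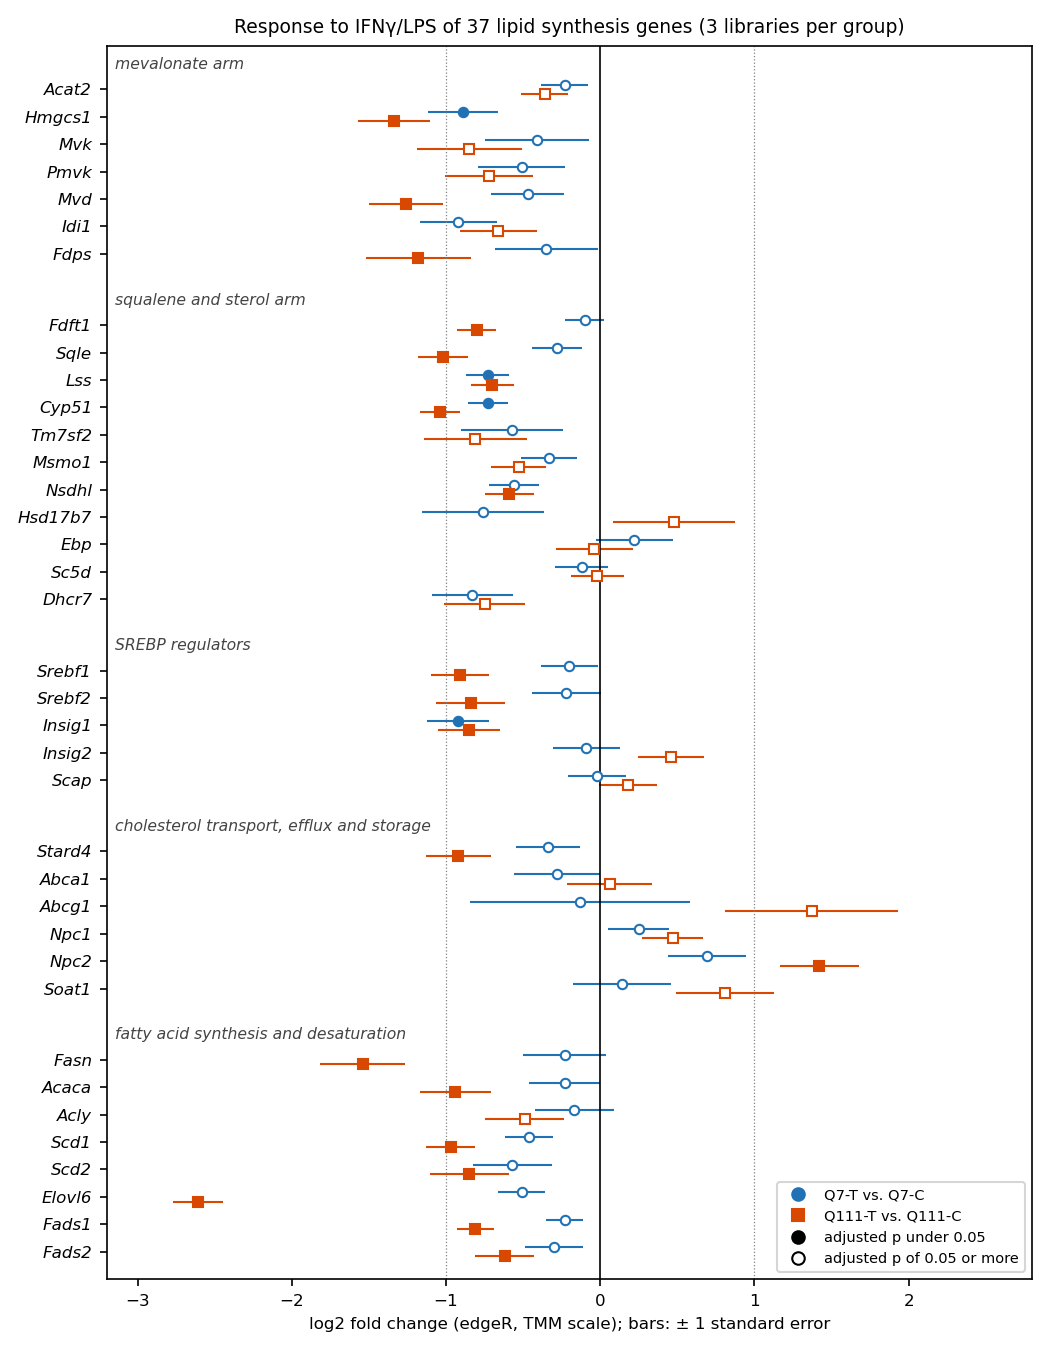
Log2 fold change on treatment with IFNγ/LPS (horizontal axis, edgeR on TMM-scaled counts) of each of the 37 genes in STHdhQ7 cells (blue circles) and STHdhQ111 cells (orange squares), 3 libraries per group, with bars of 1 standard error and filled symbols for an adjusted p under 0.05. Of the orange squares, 19 are filled on the left of 0 and 1 (Npc2) on the right, while 4 blue circles are filled, all on the left.

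Summed over the 18 enzymes from Acat2 to Dhcr7, the sterol pathway stood at 863 to 1039 TPM in Q7-C, 578 to 706 in Q7-T, 858 to 909.9 in Q111-C and 439 to 499.5 in Q111-T. The treated libraries of both lines lay below the nontreated ones, and the Q111-T libraries below all others. By edgeR, treatment downregulated 8 of the 18 enzymes in STHdhQ111 cells and 3 in STHdhQ7 cells, and upregulated 0 in both, against 7.33% and 1.74% of all genes lower and 11.3% and 3.61% higher.

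In the mevalonate arm, Hmgcs1 and Mvd fell most in STHdhQ111 cells, followed by Fdps. Hmgcs1 (chr13:119690379-119708260 on GRCm38), the synthase that makes HMG-CoA, was at 47.4, 96.5 and 114 TPM in Q7-C, 59.1, 19.3 and 47.1 TPM in Q7-T, 107, 127 and 116 TPM in Q111-C and 43.3, 37.6 and 48.0 TPM in Q111-T, in the order of replicates 1 to 3 as in all such lists here. All Q111-T libraries lay below all Q111-C libraries, whereas the STHdhQ7 groups overlapped through Q7-C replicate 1. Hmgcs1 was 2.54-fold lower in Q111-T vs. Q111-C (log2 fold change -1.34, SE 0.23, adjusted p = 0.00171) and 1.86-fold lower in Q7-T vs. Q7-C (log2 fold change -0.89, SE 0.23, adjusted p = 0.0476). The call in STHdhQ7 cells was lost in 16 of 23 alternative analyses, that in STHdhQ111 cells in 0 of 23.

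Mvd, the decarboxylase that yields isopentenyl diphosphate, was at 58.1, 55.9 and 55.7 TPM in Q7-C, 33.0, 37.1 and 34.4 TPM in Q7-T, 55.0, 56.7 and 49.4 TPM in Q111-C and 23.6, 16.5 and 23.1 TPM in Q111-T. Its groups did not overlap in either line. It was 2.40-fold lower in Q111-T vs. Q111-C (log2 fold change -1.26, SE 0.24, adjusted p = 0.00326) and 2.32-fold lower in Q111-T vs. Q7-T (log2 fold change -1.21, SE 0.24, adjusted p = 0.00239), with -0.47 in Q7-T vs. Q7-C, which did not pass (adjusted p = 0.393).

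Fdps makes farnesyl diphosphate, the branch point between sterols and other isoprenoids. It was at 141, 112 and 97.9 TPM in Q7-C, 66.2, 96.8 and 69.5 TPM in Q7-T, 97.2, 94.1 and 91.9 TPM in Q111-C and 39.0, 38.1 and 39.3 TPM in Q111-T, and the 3 Q111-T libraries lay close together, below all others. In Q111-T vs. Q111-C it was 2.26-fold lower (log2 fold change -1.18, SE 0.34, adjusted p = 0.0315), a call lost without any 1 of the 6 libraries of those groups, and in Q111-T vs. Q7-T 2.85-fold lower (log2 fold change -1.51, SE 0.34, adjusted p = 0.00504). Fdps overlaps the genes Gm43738 and Gm22935, and reads from them could have been counted with it.

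Mvk, mevalonate kinase, was at 84.1, 68.4 and 65.3 TPM in Q7-C, 35.2, 58.8 and 42.7 TPM in Q7-T, 51.4, 49.0 and 46.7 TPM in Q111-C and 27.4, 22.9 and 25.8 TPM in Q111-T. It was 2.59-fold lower in Q111-T than in Q7-T (log2 fold change -1.38, SE 0.34, adjusted p = 0.00868), against -0.77 on the log2 scale without Q7-C replicate 1 and Q7-T replicate 2. Its value in Q111-T vs. Q111-C (-0.85) did not pass (adjusted p = 0.114), although the groups did not overlap. The acetyl-CoA thiolase Acat2, the kinase Pmvk and the isomerase Idi1 had log2 fold changes of -0.36, -0.72 and -0.66 in Q111-T vs. Q111-C, and none passed. Over the 12 libraries they spanned 54.4 to 102, 27.2 to 63.8 and 11.8 to 72.8 TPM. Idi1 had -0.92 in Q7-T vs. Q7-C (adjusted p = 0.0577). All 7 mevalonate genes had values below 0 in both treatment comparisons.

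In the squalene and sterol arm, 5 of 11 enzymes fell in Q111-T vs. Q111-C (Fdft1, Sqle, Lss, Cyp51 and Nsdhl) and 2 in Q7-T vs. Q7-C (Lss and Cyp51), against 7.33% and 1.74% of all genes. Sqle, squalene epoxidase and a rate-limiting step of the sterol arm, was at 60.9, 118 and 123.2 TPM in Q7-C, 79.2, 59.0 and 72.8 TPM in Q7-T, 71.4, 74.0 and 71.9 TPM in Q111-C and 33.4, 29.1 and 37.8 TPM in Q111-T. Its treated STHdhQ111 libraries were below every other library. It was 2.03-fold lower in Q111-T vs. Q111-C (log2 fold change -1.02, SE 0.16, adjusted p = 0.00101) and 2.81-fold lower in Q111-T vs. Q7-T (log2 fold change -1.49, SE 0.17, adjusted p = 4.36e-05).

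Cyp51, the lanosterol demethylase, was at 48.4, 76.6 and 81.6 TPM in Q7-C, 47.3, 22.2 and 41.8 TPM in Q7-T, 68.2, 72.4 and 69.0 TPM in Q111-C and 34.9, 26.9 and 33.9 TPM in Q111-T. It fell in both lines, 2.05-fold in Q111-T vs. Q111-C (log2 fold change -1.04, SE 0.13, adjusted p = 0.000167) and 1.66-fold in Q7-T vs. Q7-C (log2 fold change -0.73, SE 0.13, adjusted p = 0.00495). All treated libraries lay below all nontreated libraries. Cyp51 overlaps Akap9 on the opposite strand. The libraries were stranded, but whether counting used the strand is not given in the sources used here.

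Fdft1, squalene synthase, the first enzyme committed to sterols, was at 60.1, 71.0 and 69.0 TPM in Q7-C, 61.1, 42.8 and 61.2 TPM in Q7-T, 73.4, 76.5 and 66.8 TPM in Q111-C and 41.8, 34.5 and 40.1 TPM in Q111-T. Q111-T libraries were again below all others. Its response in STHdhQ111 cells was -0.80 (adjusted p = 0.000914) and in STHdhQ7 cells -0.10 (adjusted p = 0.783), a difference of -0.70, SE 0.18, adjusted p = 0.0431. That difference was lost in 14 of 22 alternative analyses, and Fdft1 overlaps Ctsb on the opposite strand.

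Lss, lanosterol synthase, fell by a like amount in both lines, with log2 fold changes of -0.70 in STHdhQ111 cells (SE 0.14, adjusted p = 0.00409) and -0.73 in STHdhQ7 cells (SE 0.14, adjusted p = 0.00853). The difference between them was 0.03 with an SE of 0.20. Lss spanned 4.22 to 19.7 TPM over the 12 libraries and Nsdhl 14.7 to 39.2 TPM. Nsdhl, a sterol dehydrogenase, fell by 0.59 on the log2 scale in STHdhQ111 cells (adjusted p = 0.0239). Values of the other enzymes in Q111-T vs. Q111-C, none of which passed, were -0.81 for the sterol reductase Tm7sf2, -0.53 for the methyl oxidase Msmo1, -0.75 for the final reductase Dhcr7, -0.04 for the isomerase Ebp, -0.02 for the desaturase Sc5d and 0.48 for the ketoreductase Hsd17b7. Msmo1 spanned 21.1 to 52.3 TPM, Dhcr7 0.981 to 7.997, Sc5d 10.7 to 29.4 and Hsd17b7 1.11 to 11.1.

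Tm7sf2 and Ebp were lower in STHdhQ111 than in STHdhQ7 cells in both states, and neither was called on treatment. Ebp was at 73.8, 67.3 and 56.9 TPM in Q7-C, 67.9, 68.8 and 64.2 TPM in Q7-T, 43.0, 40.9 and 40.1 TPM in Q111-C and 36.5, 37.3 and 38.0 TPM in Q111-T. Every STHdhQ111 library lay below every STHdhQ7 library, and Ebp was 2.05-fold lower in Q111-C vs. Q7-C (log2 fold change -1.03, SE 0.25, adjusted p = 0.0112) and 2.46-fold lower in Q111-T vs. Q7-T (log2 fold change -1.30, SE 0.25, adjusted p = 0.00209). Tm7sf2 was low, at 4.87, 5.16 and 3.91 TPM in Q7-C, 2.59, 3.07 and 2.22 TPM in Q7-T, 2.87, 2.65 and 2.07 TPM in Q111-C and 1.43, 1.43 and 1.12 TPM in Q111-T. Its log2 fold changes were -1.21 in Q111-C vs. Q7-C (adjusted p = 0.0222) and -1.45 in Q111-T vs. Q7-T (adjusted p = 0.00604). Tm7sf2 shares part of its span and its strand with Vps51, so its reads are uncertain.

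Among the SREBP regulators, Srebf1, Srebf2 and Insig1 fell in STHdhQ111 cells, Insig1 fell in STHdhQ7 cells, and Insig2 and Scap were not called in either. Srebf1, which encodes SREBP1, was at 20.9, 22.0 and 23.4 TPM in Q7-C, 22.6, 9.20 and 21.9 TPM in Q7-T, 72.2, 84.7 and 75.1 TPM in Q111-C and 48.4, 29.5 and 38.1 TPM in Q111-T. Every STHdhQ111 library, treated or not, was above every STHdhQ7 library. Srebf1 was 2.78-fold higher in Q111-C vs. Q7-C (log2 fold change 1.48, SE 0.19, adjusted p = 0.00017) and 1.70-fold higher in Q111-T vs. Q7-T (log2 fold change 0.77, SE 0.19, adjusted p = 0.00769). It fell 1.88-fold with treatment in STHdhQ111 cells (log2 fold change -0.91, SE 0.19, adjusted p = 0.00521), and its value in STHdhQ7 cells was -0.20 (adjusted p = 0.697). The interaction did not pass (log2 fold change -0.71, SE 0.26, adjusted p = 0.16). Srebf1 overlaps Rai1 on the opposite strand.

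Srebf2, which encodes SREBP2, fell 1.79-fold in Q111-T vs. Q111-C (log2 fold change -0.84, SE 0.23, adjusted p = 0.0221) and was not called between the lines. It spanned 36.5 to 169 TPM over the 12 libraries. Insig1, which retains SCAP and is itself an SREBP target, was at 20.7, 38.5 and 37.2 TPM in Q7-C, 22.0, 7.79 and 16.5 TPM in Q7-T, 35.5, 46.7 and 39.7 TPM in Q111-C and 24.8, 17.1 and 21.4 TPM in Q111-T. It fell 1.81-fold in Q111-T vs. Q111-C (log2 fold change -0.85, SE 0.20, adjusted p = 0.0111) and 1.89-fold in Q7-T vs. Q7-C (log2 fold change -0.92, SE 0.20, adjusted p = 0.0199). Q7-C replicate 1 overlapped with Q7-T replicate 1, and Q7-T replicate 2 was the lowest library. Insig2 (spanning 7.62 to 32.7 TPM), the isoform that is not an SREBP target, had 0.46 in STHdhQ111 cells (adjusted p = 0.182) and Scap (spanning 12.3 to 39.6 TPM) had 0.18 (adjusted p = 0.598).

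Of the 6 genes that move or store cholesterol, 1 rose and 1 fell with treatment in STHdhQ111 cells, and 0 were called in STHdhQ7 cells. At 16.7% each way in a list of this size, this was near the shares of all genes (11.3% higher and 7.33% lower). Abcg1, an efflux pump for sterols, was all but absent from STHdhQ7 cells, at 0, 8 and 24 estimated counts in Q7-C and 12, 4 and 8 in Q7-T. It had 357, 476 and 504 estimated counts in Q111-C (1.57, 1.87 and 1.80 TPM) and 1125, 984 and 865 in Q111-T (4.27, 4.07 and 4.27 TPM). About 4 estimated counts were taken to stand for 1 read pair, as low counts were 1.54 to 1.82 times more often multiples of 4 than odd neighbours. All Q7-T libraries lay at or under the floor of 12 counts per library set on this basis. Against that floor, Abcg1 was at least 73.2-fold higher in Q111-T vs. Q7-T. In Q111-C vs. Q7-C it was also higher (adjusted p = 0.000181). With 2 of 3 Q7-C libraries under the floor the fitted log2 fold change is imprecise, at 5.37 with all libraries and 6.56 without Q7-C replicate 3. All Q111-T libraries were above all Q111-C libraries, but the log2 fold change did not pass (1.37, SE 0.56, adjusted p = 0.125).

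Abca1, which loads cholesterol onto apolipoproteins, was at 1.12, 2.85 and 3.11 TPM in Q7-C, 2.62, 0.778 and 1.85 TPM in Q7-T, 7.16, 8.26 and 8.48 TPM in Q111-C and 8.15, 6.34 and 8.95 TPM in Q111-T. The lines did not overlap. Abca1 was 2.83-fold higher in Q111-C vs. Q7-C (log2 fold change 1.50, SE 0.28, adjusted p = 0.00228) and 3.59-fold higher in Q111-T vs. Q7-T (log2 fold change 1.84, SE 0.28, adjusted p = 0.000452), with no call on treatment (-0.28 in STHdhQ7 and 0.06 in STHdhQ111 cells).

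Npc2, which hands cholesterol to NPC1 in the lysosome, was the 1 member upregulated by treatment. It was at 68.8, 64.2 and 58.0 TPM in Q7-C, 83.5, 95.1 and 85.1 TPM in Q7-T, 80.3, 87.3 and 91.4 TPM in Q111-C and 228, 207 and 211 TPM in Q111-T. Every Q111-T library was above every other library, and the Q7-T libraries were above the Q7-C libraries. It rose 2.68-fold in Q111-T vs. Q111-C (log2 fold change 1.42, SE 0.26, adjusted p = 0.00229), while its value in Q7-T vs. Q7-C was 0.69 (adjusted p = 0.188) and the interaction did not pass (adjusted p = 0.286). Npc1 had 0.47 (adjusted p = 0.139) and Soat1, which esterifies cholesterol for storage, 0.81 (adjusted p = 0.107) in Q111-T vs. Q111-C. Npc1 spanned 2.28 to 9.76 TPM, Soat1 3.36 to 18.3 and Stard4 8.77 to 30.0. Stard4, a sterol transfer protein and SREBP target, fell 1.89-fold in the same comparison (log2 fold change -0.92, SE 0.21, adjusted p = 0.00977).

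In STHdhQ111 cells 7 of 8 fatty acid genes were downregulated, against 7.33% of all genes, and the groups of all 8 did not overlap, against 49.6% of all genes in either direction. In Q7-T vs. Q7-C, 0 of 8 were called. Elovl6, the elongase that turns palmitate into stearate, had the largest fall of all 37 members. It was at 9.03, 16.0 and 17.9 TPM in Q7-C, 10.4, 5.65 and 10.4 TPM in Q7-T, 20.0, 21.1 and 21.5 TPM in Q111-C and 3.54, 3.02 and 2.95 TPM in Q111-T. Every Q111-T library was below every other library. Elovl6 was 6.11-fold lower in Q111-T vs. Q111-C (log2 fold change -2.61, SE 0.16, adjusted p = 8.44e-07), against -0.51 in Q7-T vs. Q7-C (adjusted p = 0.0972). The responses differed by -2.10, SE 0.22, adjusted p = 0.000351, a call kept in all 22 alternative analyses. Elovl6 overlaps Gm43072 on the same strand.

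Fasn, fatty acid synthase, was at 33.8, 57.6 and 68.2 TPM in Q7-C, 48.3, 18.8 and 56.9 TPM in Q7-T, 76.9, 93.4 and 87.2 TPM in Q111-C and 36.3, 15.9 and 32.1 TPM in Q111-T. It fell 2.91-fold in Q111-T vs. Q111-C (log2 fold change -1.54, SE 0.28, adjusted p = 0.0021), with -0.23 in STHdhQ7 cells (adjusted p = 0.774). The interaction was -1.31 and did not pass (adjusted p = 0.072). In Q111-T vs. Q7-T, Fasn was lower (log2 fold change -0.90, SE 0.27, adjusted p = 0.0214), a call lost without Q111-T replicate 2 or Q7-T replicate 3, on the TPM scale and with only the compared groups fitted. Acaca, acetyl-CoA carboxylase, which supplies malonyl-CoA to Fasn, fell 1.92-fold in STHdhQ111 cells (log2 fold change -0.94, SE 0.23, adjusted p = 0.0143), and Acly, which makes cytosolic acetyl-CoA from citrate, had -0.49 and did not pass (adjusted p = 0.236). Acaca spanned 4.64 to 19.7 TPM and Acly 39.1 to 154.

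The desaturases Scd1 and Scd2, which make monounsaturated fatty acids, fell 1.96-fold (log2 fold change -0.97, SE 0.16, adjusted p = 0.0011) and 1.80-fold (log2 fold change -0.85, SE 0.26, adjusted p = 0.04) in Q111-T vs. Q111-C. Scd1 spanned 26.5 to 108 TPM and Scd2 73.8 to 496. They are close paralogs, so reads could be split between them, and the Scd2 call was lost in 13 of 23 alternative analyses. Fads1, which acts on polyunsaturated fatty acids, was at 80.3, 127 and 134 TPM in Q7-C, 92.4, 60.8 and 100.6 TPM in Q7-T, 96.4, 105 and 100.0 TPM in Q111-C and 58.4, 44.8 and 58.3 TPM in Q111-T. The Q111-T libraries were below all others, and Fads1 fell 1.75-fold in Q111-T vs. Q111-C (log2 fold change -0.81, SE 0.12, adjusted p = 0.000639). Its neighbour Fads2 was at 148, 246 and 249.4 TPM in Q7-C, 195, 76.5 and 207 TPM in Q7-T, 130.4, 148 and 134 TPM in Q111-C and 96.6, 63.6 and 92.4 TPM in Q111-T. It fell 1.54-fold (log2 fold change -0.62, SE 0.19, adjusted p = 0.0419), a call lost in 12 of 23 alternative analyses, among them those without any 1 of the 6 STHdhQ111 libraries. It was also lower in STHdhQ111 than in STHdhQ7 cells, by 1.90-fold without treatment (log2 fold change -0.93, SE 0.19, adjusted p = 0.00417) and 2.39-fold with it (log2 fold change -1.26, SE 0.19, adjusted p = 0.000432).

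**Figure D2:**
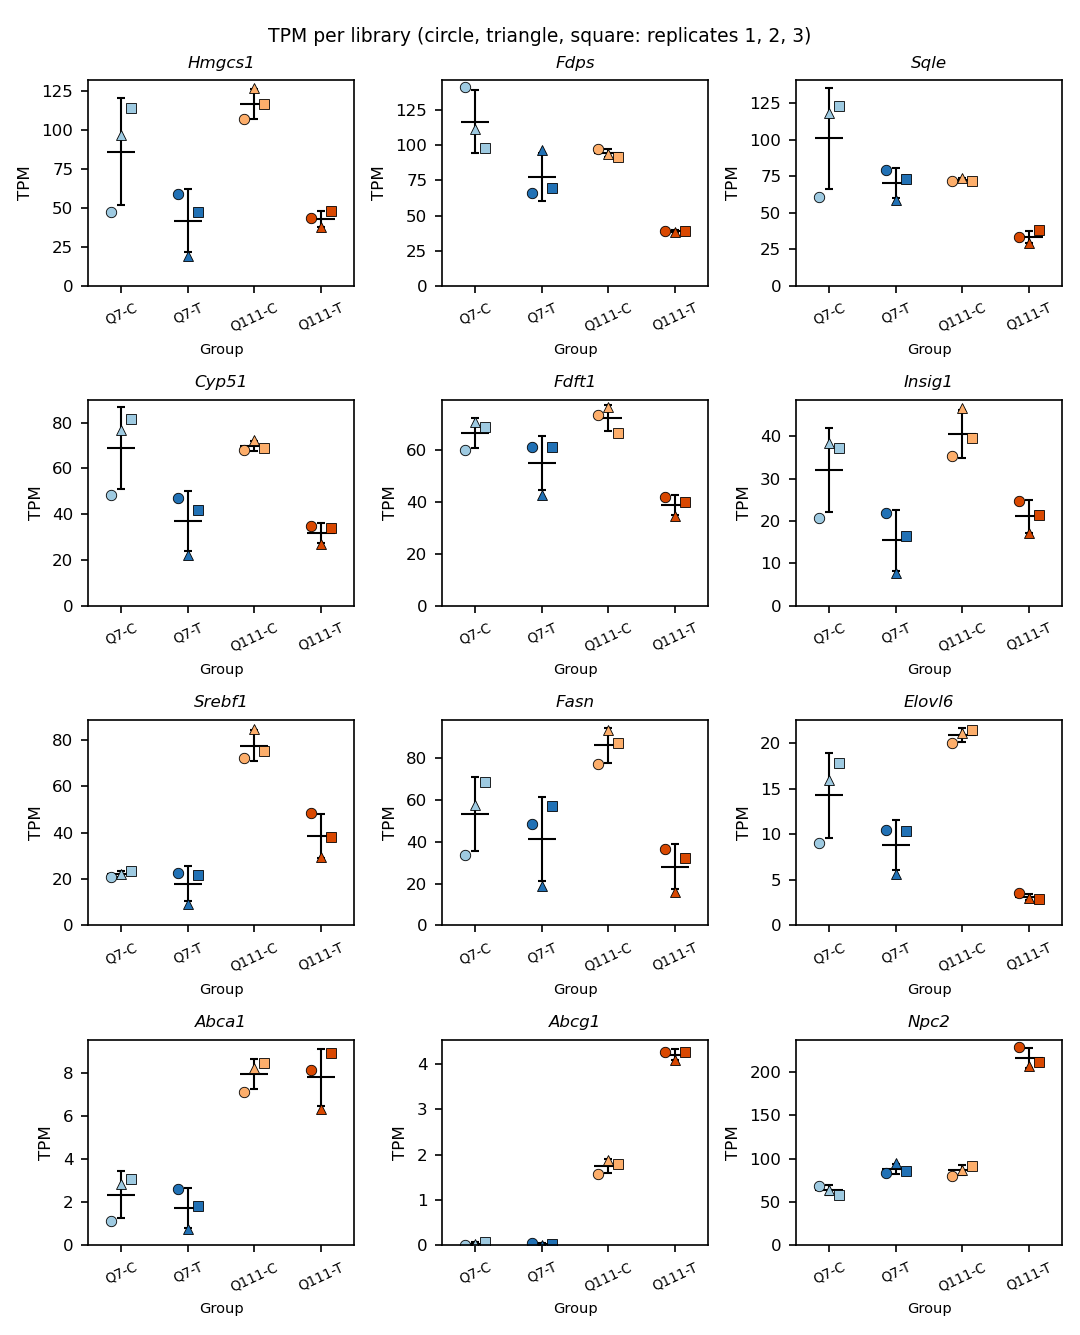
TPM (vertical axes, linear and from 0) in each of the 12 libraries for 12 of the genes, by group, where circles, triangles and squares are replicates 1, 2 and 3 and the black lines give the mean and SD of 3 libraries. The Q111-T libraries are the lowest for Fdps, Sqle, Fdft1 and Elovl6 and the highest for Npc2, and Abcg1 is near 0 in all 6 STHdhQ7 libraries.

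Between the lines, 6 of 18 sterol enzymes were lower and both efflux pumps higher in nontreated STHdhQ111 cells. In Q111-C vs. Q7-C, 8 members were lower (Acat2, Sqle, Tm7sf2, Msmo1, Nsdhl, Ebp, Fads1 and Fads2) and 4 higher (Srebf1, Abca1, Abcg1 and Acaca), against 11.6% and 11.1% of all genes, so the share of higher calls (10.8%) was close to the background. With 2-fold, 2 were lower (Tm7sf2 and Ebp) and 3 higher (15.2% of all genes in either direction), and without Q7-C replicate 1 and Q7-T replicate 2 Ebp was at -0.76. Groups did not overlap in TPM for 16 members, 12 of them higher, against 51.4% of all genes. The call of Acaca was lost in 13 of 23 alternative analyses. None of the 8 lower calls held in all 23, and leaving out libraries cut the lower members to as few as 2.

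With IFNγ/LPS, 16 members were lower and 5 higher in Q111-T vs. Q7-T, against 18.7% and 19.8% of all genes. With 2-fold, 9 were lower (Mvk, Mvd, Fdps, Sqle, Tm7sf2, Ebp, Elovl6, Fads1 and Fads2) and 2 higher (Abca1 and Abcg1), against 24.5% in either direction. Without Q7-C replicate 1 and Q7-T replicate 2, Mvk (-0.77), Mvd (-0.84), Fdps (-0.95), Tm7sf2 (-0.97) and Ebp (-0.96) were still called but below 2-fold. Groups did not overlap for 19 members (46.3% of all genes). Of the 18 sterol enzymes, 6 were lower without treatment and 11 with it, with 0 higher in either. Msmo1 had -0.71 and -0.91 in the comparisons without and with treatment, Nsdhl -0.58 and -0.62, and Acat2 -0.57 and -0.70, all 6 past the adjusted threshold. All 6 calls were lost on the TPM scale. Those without treatment were lost in 7, 8 and 7 of 23 alternative analyses for Msmo1, Nsdhl and Acat2. Mvk, Mvd, Fdps, Fdft1, Cyp51, Stard4, Fasn and Elovl6 were called lower with treatment but not without it, as Fdft1, Cyp51, Stard4 and Fasn with -0.91, -0.58, -0.87 and -0.90. Of these, only Elovl6 and Fdft1 passed the interaction test with all libraries, so for the others a difference between the states was not shown. Npc1 and Npc2 were called higher with treatment but not without it, at 0.56 (adjusted p = 0.0431) and 0.82 (adjusted p = 0.0252), calls lost in 10 and 5 of 23 alternative analyses.

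The comparison of the lines depended on the scale. Relative to the TMM-scaled counts used here, TPM moved the median log2 difference of all genes from -0.02 without treatment and -0.03 with it, to 0.274 and 0.341. The median of the 37 members was -0.21 and -0.31 on the TMM scale and 0.12 and 0.11 on the TPM scale. By limma on log2(TPM + 0.5), 2 members were lower and 4 higher in nontreated STHdhQ111 cells, and 8 lower and 5 higher in treated ones. In that fit 7.03% of all genes were lower and 15.4% higher without treatment, and 9.65% and 26.7% with it, so the shares of lower calls without treatment and of higher calls in both states were below the background. The median of the 18 sterol enzymes stayed below 0 on both scales, at -0.47 and -0.13 without treatment and -0.66 and -0.24 with it. For the response to treatment, the median of the members in STHdhQ111 cells was -0.75 on the TMM scale and -0.78 on the TPM scale. In STHdhQ7 cells it was -0.30 and -0.48, and the TPM fit called Mvd and Pmvk there and none of the 4 genes called on the TMM scale. Without Q7-C replicate 1 and Q7-T replicate 2, 15 members were lower and 4 higher in nontreated STHdhQ111 cells, and 21 lower and 6 higher in treated ones. The shares of all genes also rose in that fit, to 17.9% lower and 16.6% higher without treatment and 21.6% and 26.2% with it.

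**Figure D3:**
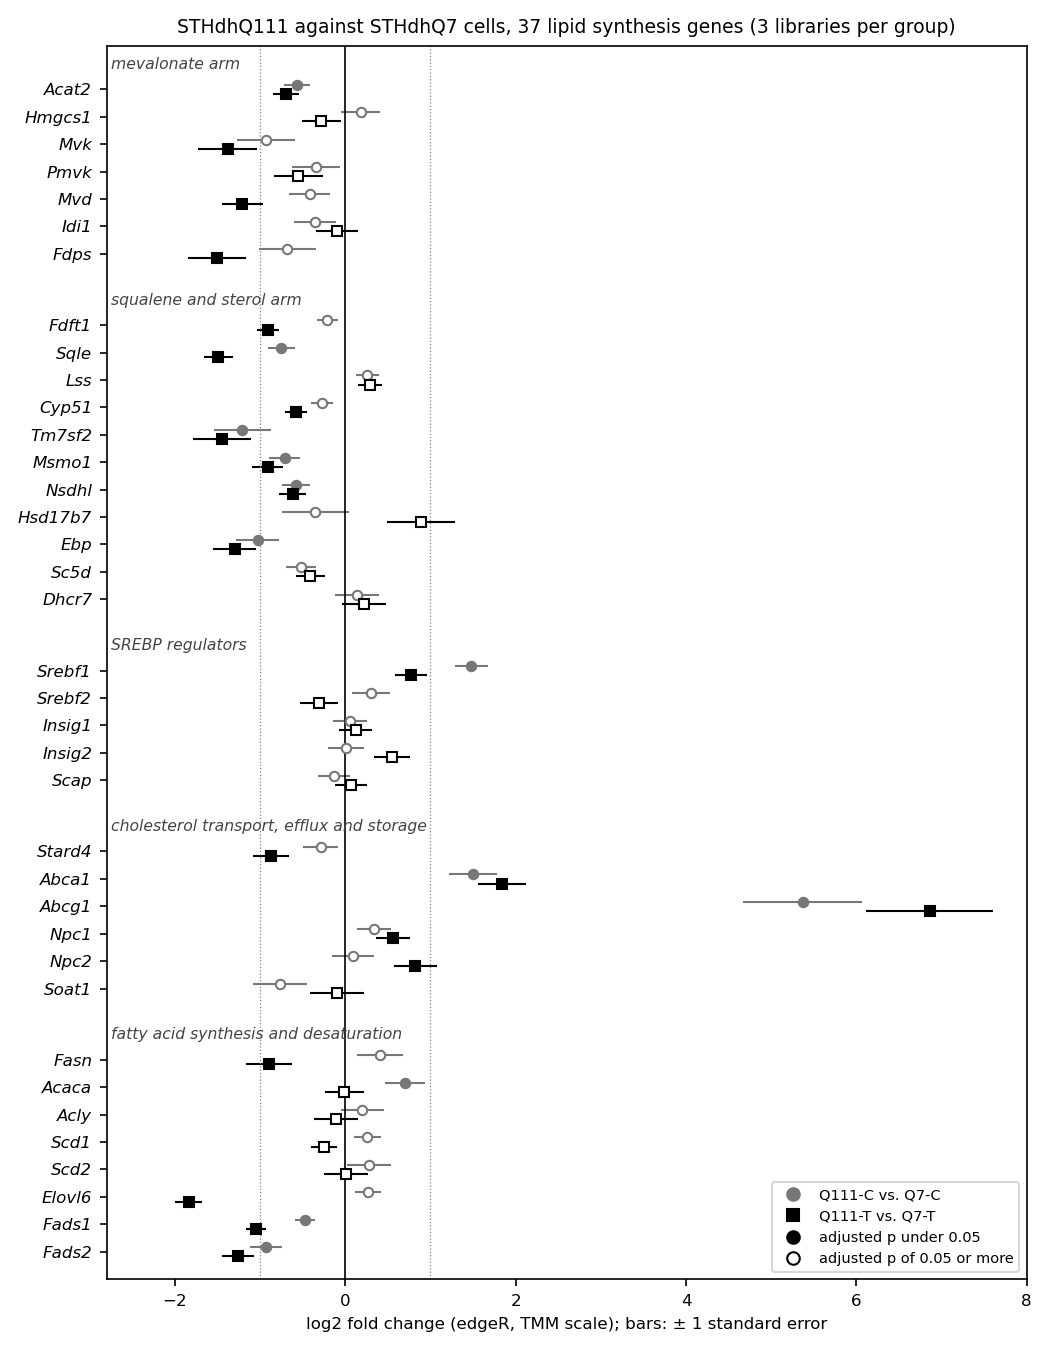
Log2 fold change between STHdhQ111 and STHdhQ7 cells (horizontal axis, edgeR on TMM-scaled counts) of each of the 37 genes without treatment (grey circles) and with IFNγ/LPS (black squares), 3 libraries per group, with bars of 1 standard error and filled symbols for an adjusted p under 0.05. Filled symbols lie left of 0 for 8 genes without and 16 with treatment, and Srebf1, Abca1 and Abcg1 are filled on the right in both.

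Within groups, the members did not vary as 1 block. On the TMM scale, centred on each gene's mean over the 12 libraries, Q7-C replicate 1 and Q7-T replicate 2 were high for Mvk (1.31 and 1.15), Fdps (1.30 and 1.12), Tm7sf2 (1.34 and 1.04) and Ebp (0.93 and 1.19). Q7-T replicate 2 was low for Hsd17b7 (-1.87), Dhcr7 (-1.35), Scd2 (-1.11), Idi1 (-1.08) and Hmgcs1 (-0.94). The other Q7-T libraries lay between -0.47 and 0.27 for these 5 genes. Among the Q111-T libraries, replicate 2 was the lowest for Fasn, Srebf2 and Acaca.

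**Figure D4:**
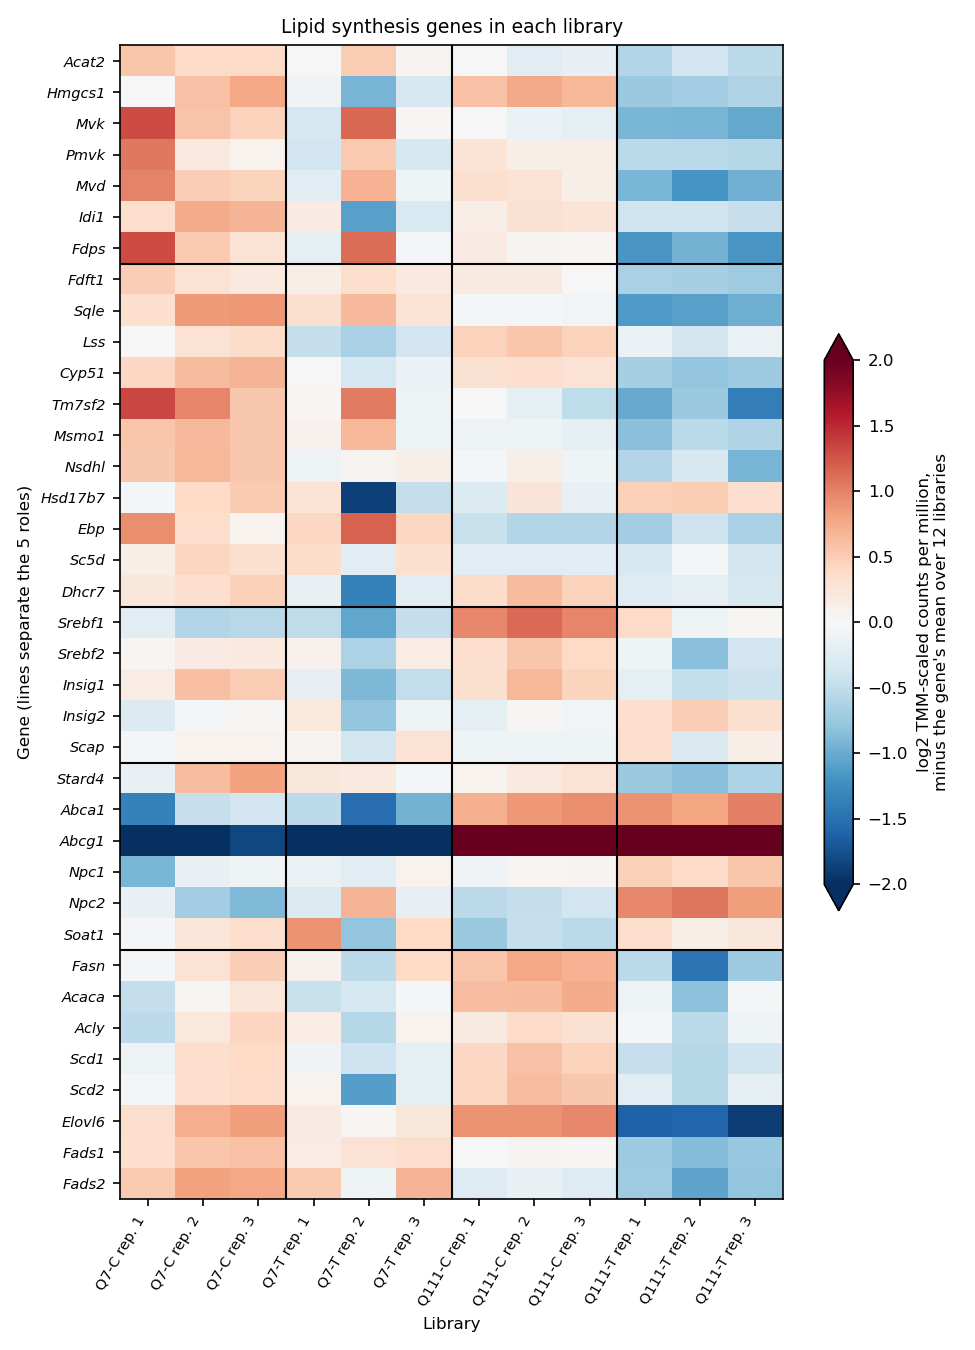
Log2 TMM-scaled CPM of the 37 genes (rows, in the order of their roles) in the 12 libraries (columns), each minus the gene's mean over all libraries, with colours running from -2 (blue) to 2 (red) and capped there. Columns of Q111-T are blue for most enzyme rows, and Q7-T replicate 2 differs from the other Q7-T columns, with Mvk and Fdps red and Hsd17b7 and Dhcr7 blue.

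Of 54 other genes of lipid metabolism, treatment upregulated 2 and downregulated 1 in STHdhQ7 cells, and upregulated 9 and downregulated 2 in STHdhQ111 cells. In STHdhQ7 cells these shares (3.70% and 1.85%) were close to those of all genes (3.61% and 1.74%), and in STHdhQ111 cells they were 16.7% and 3.70% against 11.3% and 7.33%. Their medians were 0.04 in both comparisons, where those of the members were -0.30 and -0.75. Ch25h, which makes the oxysterol 25-hydroxycholesterol and is known as an interferon-induced gene, was at 1.47, 1.58 and 1.47 TPM in Q7-C, 44.5, 11.9 and 33.5 TPM in Q7-T, 4.38, 6.79 and 3.73 TPM in Q111-C and 133, 159 and 105 TPM in Q111-T. Every treated library was above every nontreated library, and Q7-T replicate 2 was the lowest of the treated ones. It rose by 4.37 on the log2 scale in STHdhQ7 cells (adjusted p = 1.53e-05) and 4.86 in STHdhQ111 cells (adjusted p = 4.02e-06), and a difference between the responses was not shown (interaction 0.49, adjusted p = 0.614).

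Responses of 4 other genes differed between the lines by the interaction test, a call kept in all 22 alternative analyses for Stard5 and lost in 12 for Vldlr, 5 for Acsl5 and 3 for Acss2. Their share of the 54 genes (5.56% with a higher and 1.85% with a lower response in STHdhQ111 cells) was close to that of all genes (3.94% and 1.75%). Stard5, a sterol-binding protein, was at 7.10, 8.88 and 8.77 TPM in Q7-C, 9.14, 5.17 and 7.99 TPM in Q7-T, 2.40, 3.05 and 2.83 TPM in Q111-C and 10.7, 10.5 and 8.13 TPM in Q111-T. It rose in STHdhQ111 cells (1.94, adjusted p = 1.52e-05) from a level below that of STHdhQ7 cells. Vldlr, a lipoprotein receptor, rose in STHdhQ111 cells (0.88, adjusted p = 0.00892), with -0.32 in STHdhQ7 cells. Acss2, which makes acetyl-CoA from acetate and is an SREBP target, fell in STHdhQ7 cells (-1.28, adjusted p = 0.000278), with -0.10 in STHdhQ111 cells. Acsl5, a fatty acyl-CoA synthetase, rose in STHdhQ7 cells (0.83, adjusted p = 0.00312), with -0.08 in STHdhQ111 cells. Lpin1, a phosphatidate phosphatase of lipid synthesis, was higher in STHdhQ111 cells in both states (1.69 and 2.26, the latter 2.86 without Q7-C replicate 1 and Q7-T replicate 2) and rose there with treatment (1.49, adjusted p = 0.0187).

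**Figure D5:**
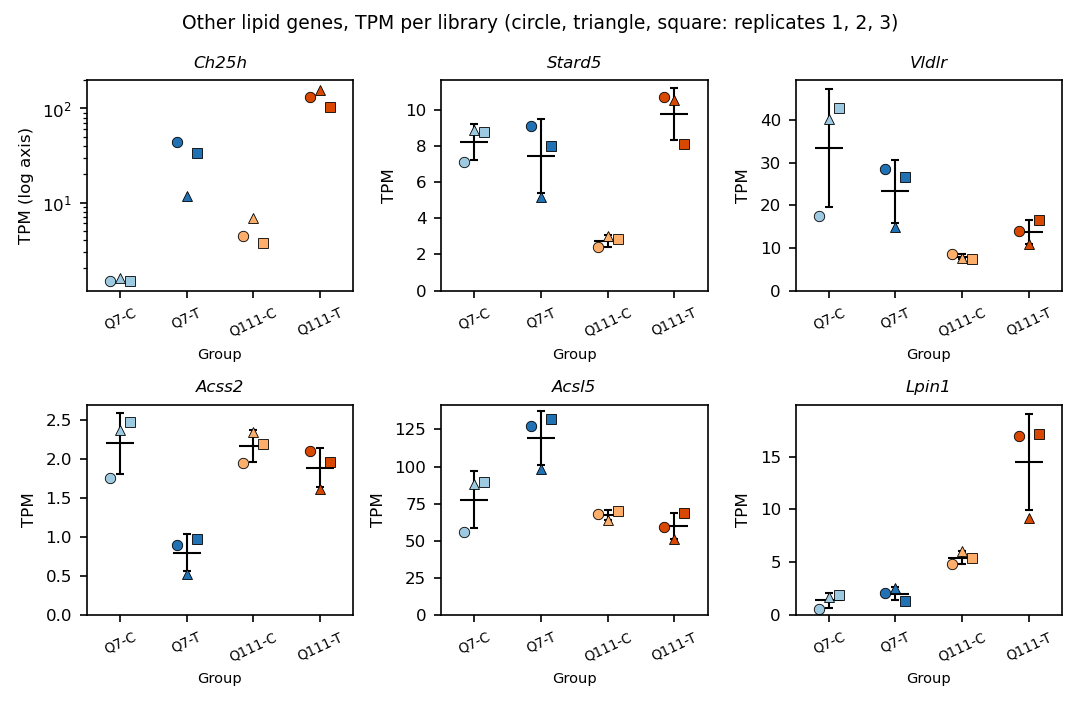
TPM in each of the 12 libraries for 6 other lipid genes, by group, where circles, triangles and squares are replicates 1, 2 and 3. The axis of Ch25h is logarithmic and the others are linear from 0, with black lines for the mean and SD of 3 libraries. Ch25h is higher in all 6 treated libraries, and Stard5 is lowest in the 3 Q111-C libraries.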

How the data were processed

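The 12 libraries were stranded, poly(A)-selected and sequenced from paired ends. Per the methods and the submitters' processing notes, the authors trimmed with Cutadapt, mapped with HISAT2 (GRCm38) and quantified with StringTie. The authors deposited TPM values, normalized for length and library total, and estimated counts, whole numbers that were not normalized. The 37 members, the gene lists and the alternatives were chosen with earlier results of these data known.

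Counts were scaled by TMM and tested with edgeR 4.0.16 (quasi-likelihood, R 4.3.3) in 1 fit over all 12 libraries with a mean per group, for 16127 genes with at least 0.5 TPM in 3 libraries. Adjusted p-values are Benjamini-Hochberg over all genes tested, and SEs were the log2 fold change over the root of the F statistic. Calls had an adjusted p under 0.05, and 2-fold is stated where used. Alternatives were DESeq2 1.42.0, limma 3.58.1 on log2(TPM + 0.5) (pseudocounts 0.1 and 1 too), other size factors, filters, counts divided by 4, only the groups compared, the replicate block and leaving out libraries. The floor of 12 counts covers counting error only, as the reads carry no molecular identifiers. The genes given per library are the members past both thresholds in at least 1 of 5 comparisons, and Insig1 and Fdft1, chosen after their values were seen. Of 54 other pathway genes, those past both thresholds in at least 1 comparison and Ch25h are named by the rule, and Rnf139, Ggps1 and Lipa after their values were seen. The fits were tested on simulated counts, and no replicates agreed within sampling noise. Gene overlaps are from GENCODE M21 (GRCm38). A few genes of the pathway were not analysed here.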

Additional observations from a re-analysis of the deposited data

Results flagged for a closer look

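The response to IFNγ/LPS differed between the lines by edgeR's interaction test for 2 members and 4 other lipid genes, so these are given for a closer look. Over all genes 3.94% had a higher and 1.75% a lower response in STHdhQ111 cells, and the share of the 54 other lipid genes (5.56% and 1.85%) was close to that. For Elovl6 the difference of the responses (STHdhQ111 minus STHdhQ7, log2) was -2.10, and it passed in all 22 alternative analyses. For Fdft1 it was -0.70, and it was lost in 14 of 22. The differences were 1.93 for Stard5 (adjusted p = 0.00113), 1.21 for Vldlr (adjusted p = 0.0286), 1.19 for Acss2 (adjusted p = 0.0082) and -0.92 for Acsl5 (adjusted p = 0.0174). The call was kept in all 22 alternative analyses for Stard5 and lost in 12 for Vldlr, in 3 for Acss2 and in 5 for Acsl5. In each of the 6 genes the edgeR fit rests on 3 libraries per group, and Q7-T replicate 2 was the lowest of the 3 Q7-T libraries in TPM.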

How the results depend on the processing

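No call of a member reversed its direction in any alternative. Of the member calls, 11 of 20 in Q111-T vs. Q111-C (Hmgcs1, Mvd, Fdft1, Sqle, Cyp51, Srebf1, Npc2, Fasn, Scd1, Elovl6 and Fads1), 11 of 21 in Q111-T vs. Q7-T, 3 of 12 in Q111-C vs. Q7-C and 0 of 4 in Q7-T vs. Q7-C held in all 23 alternatives. Leaving out libraries gave 14 to 27 lower members in Q111-T vs. Q111-C (19 with all libraries) and 1 to 5 higher, 2 to 15 lower in Q7-T vs. Q7-C and 0 to 1 higher, 2 to 15 lower in Q111-C vs. Q7-C, and 15 to 21 lower and 3 to 6 higher in Q111-T vs. Q7-T. In the interaction it gave 1 to 8 lower and 0 to 3 higher. Both counts of 15, and the 27 lower and 5 higher, came without Q7-C replicate 1 and Q7-T replicate 2, where the shares of all genes rose too, in Q111-T vs. Q111-C to 16.6% lower and 20.1% higher (7.33% and 11.3% with all libraries). In Q111-C vs. Q7-C, 5 were lower without Q111-C replicate 1, 2 without Q111-C replicate 2 or 3, and 3 without Q7-C replicate 2. In Q111-T vs. Q7-T, 3 were higher without Q111-T replicate 1 or 2.

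DESeq2 gave 9 lower members in Q7-T vs. Q7-C, 2 higher in Q111-T vs. Q111-C and 5 lower in the interaction, where it called 3.84%, 13.9% and 4.90% of all genes (1.74%, 11.3% and 1.75% by edgeR). The limma fits on TPM gave, with each of the 3 pseudocounts, 2 lower in Q111-C vs. Q7-C, 8 lower in Q111-T vs. Q7-T, 2 lower in Q7-T vs. Q7-C, 2 higher in Q111-T vs. Q111-C and 1 lower in the interaction, where 1 was higher with a pseudocount of 0.1 and 2 with 0.5 or 1. Counts divided by 4 gave 2 higher in Q111-T vs. Q111-C. A fit of only the groups compared gave 0 lower in Q7-T vs. Q7-C and 6 higher in Q111-T vs. Q111-C. No filter gave 1 lower in the interaction. The cause of these shifts was not tested.

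With the replicate block, 2 members were lower in Q7-T vs. Q7-C and 1 in the interaction. Correlations of same-numbered libraries between groups ran from -0.582 to 0.45, and of different-numbered ones from -0.592 to 0.644. They rest on deviations from means of 3 libraries, so they cannot settle whether the replicate numbers pair the libraries. Depth limits Abcg1 in STHdhQ7 cells, which lay near the floor of 12 counts. Its effect on the other members was not tested.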

Other observations

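The 54 other genes of lipid metabolism held groups the text has not described. In the isoprenoid branches, Ggps1, which makes geranylgeranyl diphosphate from the product of Fdps, was at 8.94, 14.5 and 14.5 TPM in Q7-C, 14.4, 8.39 and 12.9 TPM in Q7-T, 13.2, 15.2 and 15.3 TPM in Q111-C and 22.6, 22.7 and 24.8 TPM in Q111-T. It rose in Q111-T vs. Q111-C (log2 fold change 0.78, SE 0.13, adjusted p = 0.00125), where Fdps fell. Rnf139, a ubiquitin ligase of the endoplasmic reticulum, rose in the same comparison (0.63, adjusted p = 0.00669), and it was the 1 of 7 genes of SREBP cleavage and INSIG turnover to be called there (14.3%, close to the 11.3% of all genes called higher). Among 11 genes of sterol uptake, lysosomal release and transfer, 3 rose in STHdhQ111 cells (Lipa, Vldlr and Stard5) and 0 in STHdhQ7 cells, against 11.3% and 3.61% of all genes. Lipa, the lysosomal acid lipase that frees cholesterol from esters, had 0.98 in STHdhQ111 cells (adjusted p = 0.0117) and 0.77 in STHdhQ7 cells (adjusted p = 0.0972), so a difference between the lines was not shown (interaction adjusted p = 0.773).

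Of 4 fatty acyl-CoA synthetases, which activate fatty acids, Acsl3 and Acsl4 were called in Q111-T vs. Q111-C, and Acsl1 (0.20) and Acsl5 (-0.08) were not. In their list of 19 genes 10.5% were higher and 10.5% lower, near the shares of all genes (11.3% and 7.33%). Acsl3 was at 11.7, 25.8 and 28.9 TPM in Q7-C, 14.3, 5.76 and 13.6 TPM in Q7-T, 27.3, 30.0 and 30.8 TPM in Q111-C and 11.3, 10.1 and 14.0 TPM in Q111-T, and it fell in Q111-T vs. Q111-C (log2 fold change -1.22, SE 0.22, adjusted p = 0.00237). Acsl4, which prefers arachidonate, was at 6.53, 13.8 and 15.7 TPM in Q7-C, 19.7, 7.67 and 17.2 TPM in Q7-T, 11.2, 14.3 and 15.5 TPM in Q111-C and 30.9, 24.0 and 34.1 TPM in Q111-T, and it rose (log2 fold change 1.21, SE 0.23, adjusted p = 0.00272). All Q111-T libraries lay below the Q111-C libraries for the former and above them for the latter. Cyp7b1, an oxysterol hydroxylase, was under 0.1 TPM in all Q111-C libraries and at 2.13, 1.82 and 1.99 TPM in Q111-T (adjusted p = 0.00669). Of the 4 genes of LXR and its targets that are no members, Mylip and Lpcat3 were higher in STHdhQ111 cells, with 0.93 and 1.08 without treatment and 1.50 and 0.65 with it, where 11.1% and 19.8% of all genes were higher. The call of Mylip without treatment was lost without Q111-C replicate 2 or 3 or Q7-C replicate 1 or 2. Nr1h3, which encodes the receptor LXRα itself, was lower in Q111-T vs. Q7-T (-2.06, adjusted p = 0.01), but at low counts, 66, 77 and 106 in Q7-T and 13, 26 and 23 in Q111-T, near the floor of 12. Over the alternatives its value ran from -2.30 to -0.53.

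Between the lines, Cyp27a1, a mitochondrial sterol hydroxylase, was higher in Q111-C vs. Q7-C (3.07, adjusted p = 0.0142), and Nceh1, a cholesteryl ester hydrolase, was lower (-1.31, adjusted p = 0.00635). The elongase Elovl7 was higher in STHdhQ111 cells without and with treatment (1.49 and 1.46), as was the sterol transfer protein Gramd1c (1.68 and 2.68). The dehydratase Hacd1 of fatty acid elongation was lower in both states (-1.32 and -1.73). All 6 of these values passed the adjusted threshold.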
